A study of Mus musculus with 12 samples.

Results

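The Schlafen genes are a family of largely interferon-inducible genes of immune cells, and the 7 examined here are Slfn1, Slfn2, Slfn3, Slfn4, Slfn5, Slfn8 and Slfn9. They were taken by symbol from a count table of 39666 genes, and all 7 were found. The RNA came from airway eosinophils sorted by whether they carried TREM-1, an activating receptor of myeloid cells, at their surface. The groups were TREM-1+ eosinophils (6 libraries) and TREM-1- eosinophils (6 libraries), and each of 6 lavages gave 1 library of each. Both groups came from wild-type C57BL/6 mice aged 8 to 12 weeks. These were made allergic with 20 µg ovalbumin in 4 mg alum on days 0 and 7, breathed a 1% ovalbumin aerosol for 40 minutes on days 16 to 18 and were lavaged on day 19. Lavage fluid was pooled between mice before the sort, and no library came from unexposed mice, so the comparison is between fractions of the same inflamed airway.

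Total counts were 8626701 to 19274912 in TREM-1+ libraries and 16513387 to 21234053 in TREM-1- libraries, and were lower in the TREM-1+ library in all 6 pairs. Trem1 itself, which checks the sort, averaged 93.2 ± 20.0 CPM (CPM being counts relative to the TMM-scaled library total) in TREM-1+ libraries, against 30.7 ± 8.12 CPM in TREM-1- libraries (SD, n = 6 each). All 12 eosinophil markers were present and tested, and 6 were called lower and 3 higher, with a summed level of 4777 to 7300 CPM in TREM-1+ libraries and 4878 to 7671 CPM in TREM-1- libraries. Counted over genes of 20 or more reads, lavages 1 and 2 gave libraries that lay closer to each other (chi-square per gene 6.88 in TREM-1+ and 5.26 in TREM-1-) than any others (20.6 or more). Counting noise alone would give 1, so no libraries were merged, but the labels do not say that each lavage came from separate mice, so the spread behind each p-value is that of these 6 pools and may be partly technical.

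Schlafen proteins share an N-terminal core, which in several mammalian members binds and cleaves transfer RNA or ribosomal RNA. The short members, Slfn1 and Slfn2, consist of little more than this core and are known for their effects on T cell growth. The intermediate members, Slfn3 and Slfn4, add a linker region, and the long members, Slfn5, Slfn8 and Slfn9, add a helicase-like domain. Many members are induced by type I interferon, whose receptor activates a transcription factor complex, ISGF3, that binds the interferon-stimulated response element.

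Of the 7 genes, 5 were lower in TREM-1+ eosinophils than in their TREM-1- partners from that lavage. In falling order of the size of the change these were Slfn5, Slfn1, Slfn8, Slfn9 and Slfn2. Their estimated levels in TREM-1+ cells lay between 11.9% (Slfn2) and 29.0% (Slfn5) below those in TREM-1- cells, and each of the 5 was lower in 6 of 6 lavages. Slfn3 and Slfn4, present at a few CPM, did not pass the test. In bulk samples such as these, fewer cells that express a gene and less of its RNA per cell cannot be told apart.

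The low-count filter kept all 7 genes, which were tested within the whole table of 18302 genes, by edgeR's quasi-likelihood test with the lavage as a block and Benjamini-Hochberg adjustment over all genes. A gene was called at an adjusted p below 0.05. By this rule 5 of 7 members were called lower and 0 higher. Among all genes tested 9.82% were called, 6.72% lower and 3.10% higher. The share was larger among better expressed genes. With only genes of at least 5 CPM tested, 1898 of 10978 were called, 66.6% of them lower. Under that filter 5 of the 6 members tested were called lower. A fall in all 6 lavages was seen in the same 5 members, and in 8.31% of all genes. Over all 12 libraries the ranges of the fractions were apart in 0 members, against 0.656% of all genes that were lower without overlap. The median log2 fold change over the 7 members was -0.39, that over all genes tested was 0.00, and that over all genes called lower was -0.24. At an unadjusted p below 0.05, 6 members were lower and 0 higher by edgeR. DESeq2 called 5 lower and 0 higher, and limma-voom 6 lower and 0 higher. With library totals in place of TMM factors, edgeR called 3 members lower and 0 higher. Under that scaling 16.7% of all called genes were lower, in place of 68.4%. The calls rest on comparing the fractions within a lavage: in a fit without the lavage term 0 of 7 were called in either direction by edgeR, with 0 at an unadjusted p below 0.05.

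**Figure D1:**
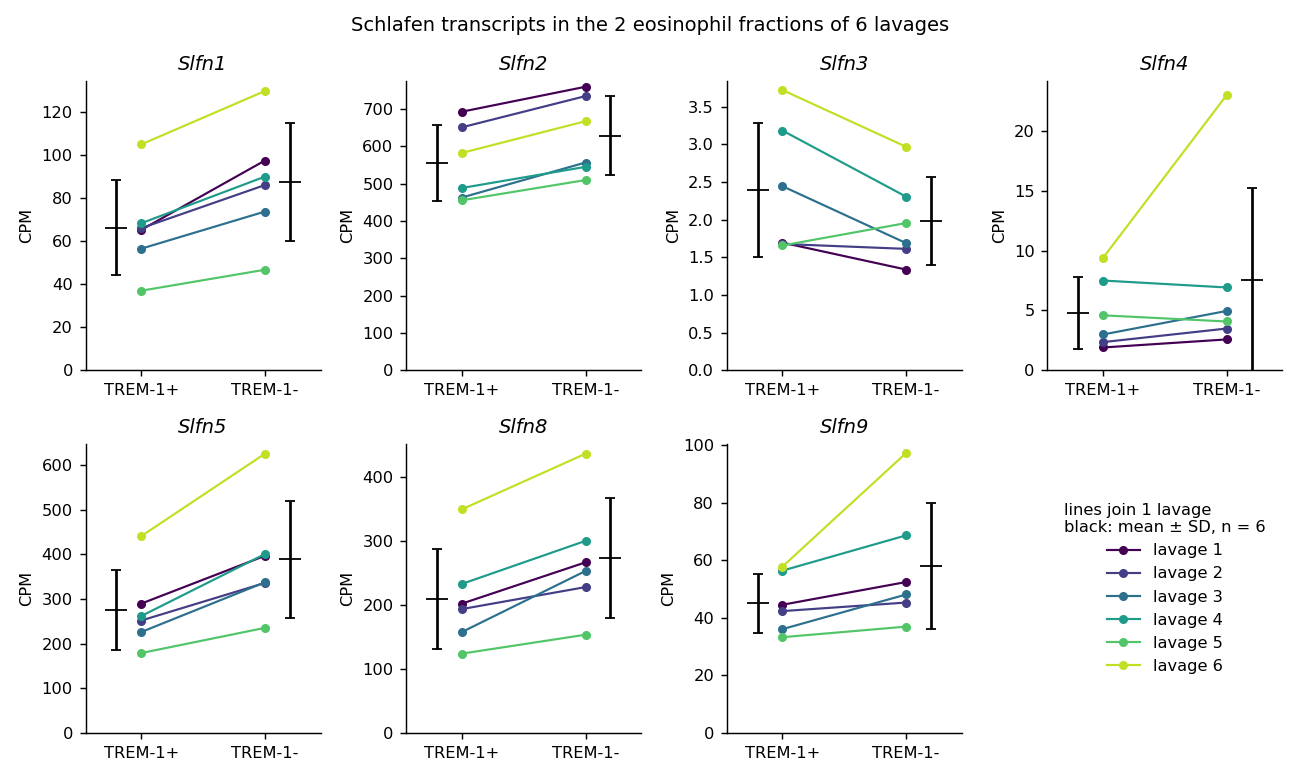
Level of each Schlafen transcript in CPM (linear axes from 0), with TREM-1+ libraries on the left and TREM-1- libraries on the right of each panel; each line joins the 2 libraries of a lavage, and black marks give the mean ± SD over 6 lavages (the lower bar of Slfn4 in TREM-1- runs past 0 and is not drawn beyond the axis). For Slfn1, Slfn2, Slfn5, Slfn8 and Slfn9 all 6 lines are higher on the TREM-1- side, while the lavages themselves are spread widely.

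The long members were the first of 3 structural groups examined. Slfn5 encodes a nuclear protein whose human counterpart restricts herpes simplex virus. From lavage 1 to lavage 6, Slfn5 stood at 289.8, 251.9, 226.1, 261.9, 179.0 and 441.0 CPM in TREM-1+ libraries, against 397.0, 336.2, 337.6, 400.9, 235.5 and 625.9 CPM in their TREM-1- partners. Lavage 6 was highest and lavage 5 lowest in both fractions. The ranges of the fractions overlapped, as they did for all 7 members, whereas within each lavage the TREM-1+ library was lower. The fitted log2 fold change was -0.49 ± 0.04 (SE), with an edgeR adjusted p = 7.51e-12, and the TREM-1+ level was 65.3 to 76.0% of the TREM-1- level in the 6 lavages. Ordered by p, Slfn5 was gene 24 of all 18302 tested.

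Slfn8, a long member studied in mouse T cells, stood at 202.2, 193.7, 157.7, 233.0, 124.0 and 349.7 CPM in TREM-1+ libraries. Their TREM-1- partners held 266.8, 228.1, 253.3, 300.4, 153.6 and 436.7 CPM. Its order of lavages was close to that of Slfn5, with lavage 6 at the top and lavage 5 at the bottom in both fractions. The fitted log2 fold change was -0.39 ± 0.04 (SE), with an edgeR adjusted p = 2.87e-07, and the paired log2 differences ran from -0.68 in lavage 3 to -0.24 in lavage 2.

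Slfn9, the adjacent close relative of Slfn8, was less abundant, at 44.5, 42.3, 36.0, 56.4, 33.2 and 57.7 CPM in TREM-1+ libraries, against 52.4, 45.3, 48.1, 68.6, 36.9 and 97.2 CPM in TREM-1- libraries. It was lower in TREM-1+ in each lavage, most in lavage 6 (log2 difference -0.75) and least in lavage 2 (-0.10). The fitted log2 fold change was -0.33 ± 0.07 (SE), with an edgeR adjusted p = 0.00127. Slfn9 was called in lavages 3 to 6 alone (-0.42, adjusted p = 0.00127) but not in lavages 1 and 2 alone (-0.15, adjusted p = 0.326), and not with library totals in place of TMM factors (-0.20, adjusted p = 0.0847).

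Reads of close relatives may not be fully separated. In GENCODE vM21 transcripts, 27.3% of the different 31-base stretches of Slfn8 and 24.6% of those of Slfn9 also occurred in transcripts of another gene, mostly each other and the pseudogene Slfn10-ps. At the read length of 100 bases the shares were 3.38% and 3.71%. With the counts of Slfn8 and Slfn9 added into a single feature, the fitted log2 fold change was -0.37 ± 0.04 (SE), with an edgeR adjusted p = 1.29e-07. Most of this sum was Slfn8, with 49099 counts over all libraries against 10376 for Slfn9. It therefore cannot show how Slfn9 alone changed, and it leaves out Slfn10-ps. Slfn10-ps, with 5.41 ± 1.67 CPM in TREM-1+ libraries and 5.39 ± 1.10 CPM in TREM-1- libraries (SD, n = 6 each), was not called (log2 fold change -0.015 ± 0.18, SE, edgeR adjusted p = 0.979).

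The promoters of the 3 long members are shown because they are those of the family that hold the interferon-stimulated response element searched for. RefSeq windows (build GRCm38.p6) of 250 bases before to 50 after the start site were matched for all 7 members by symbol. The searched forms were GAAA followed after any 2 bases by GAAA for the interferon-stimulated response element, TTCNNNGAA for the gamma-activated site of interferon gamma responses, and GAGGAAGT for the myeloid factor PU.1, on both strands. The sequences run 5′ to 3′ along the gene's own strand, and capitals mark the response element. The windows lie at chr11:82951852-82952151 on the plus strand for Slfn5, at chr11:83020761-83021060 on the minus strand for Slfn8 and at chr11:82991781-82992080 on the minus strand for Slfn9.
Slfn5: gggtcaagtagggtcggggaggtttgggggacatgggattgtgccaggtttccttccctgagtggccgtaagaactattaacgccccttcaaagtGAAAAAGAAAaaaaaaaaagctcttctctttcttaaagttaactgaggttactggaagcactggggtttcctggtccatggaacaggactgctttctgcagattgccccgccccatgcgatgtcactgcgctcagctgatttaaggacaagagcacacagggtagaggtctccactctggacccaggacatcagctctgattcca
Slfn8: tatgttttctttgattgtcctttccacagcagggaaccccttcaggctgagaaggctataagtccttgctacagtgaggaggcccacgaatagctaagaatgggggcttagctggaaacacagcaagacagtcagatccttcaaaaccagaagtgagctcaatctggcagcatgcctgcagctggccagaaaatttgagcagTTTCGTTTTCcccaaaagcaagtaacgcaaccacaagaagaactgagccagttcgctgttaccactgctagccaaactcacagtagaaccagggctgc
Slfn9: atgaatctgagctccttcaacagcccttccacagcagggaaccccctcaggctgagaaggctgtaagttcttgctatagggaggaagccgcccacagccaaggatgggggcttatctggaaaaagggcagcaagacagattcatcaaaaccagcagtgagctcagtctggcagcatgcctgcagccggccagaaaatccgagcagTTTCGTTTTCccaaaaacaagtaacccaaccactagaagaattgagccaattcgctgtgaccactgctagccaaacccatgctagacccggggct
Counted from the start site, the match in Slfn5 ran from -155 to -146, on the gene's strand. In Slfn8 and Slfn9 it lay on the opposite strand, where the window reads TTTCGTTTTC, from -48 to -39 in Slfn8 and from -45 to -36 in Slfn9. These windows of Slfn8 and Slfn9 were identical in 80.8% of their 312 aligned columns, so the matches in these neighbours are not independent of each other. A second listed start site of Slfn8, on the same strand, has the same match in its window.

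Windows of Slfn1, Slfn2, Slfn3 and Slfn4 held no such response element, and the windows of all 7 members held no match to TTCNNNGAA or GAGGAAGT. Over all 32851 promoter windows of this length, 3.44% held the response element, 8.30% the gamma-activated site and 3.20% the PU.1 form. The forms could not overlap one another in the members' windows, where only the response element was found. A match is a run of letters in this window and was not measured as a binding site here.

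The short members differed in level and in the size of their change. Slfn2, which in mice keeps resting T cells quiescent and protects transfer RNA from cleavage, was the most abundant member. It stood at 692.3, 650.5, 462.5, 488.0, 455.0 and 581.8 CPM in TREM-1+ libraries, against 759.2, 734.2, 556.3, 544.7, 509.3 and 667.0 CPM in TREM-1- libraries. Unlike in Slfn5 and Slfn8, the highest lavage was lavage 1 in both fractions. The fitted log2 fold change was -0.18 ± 0.03 (SE), with an edgeR adjusted p = 8.03e-05, and the paired log2 differences ran from -0.27 to -0.13. With library totals in place of TMM factors Slfn2 was not called (-0.054, adjusted p = 0.458). That scaling put the median log2 fold change over all genes at 0.13 and the share of lower genes among those called at 16.7%, in place of 68.4%.

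Gm20234 is listed in RefSeq as a long noncoding RNA gene, next after Slfn2 in chromosomal order. It averaged 51.7 ± 12.5 CPM in TREM-1+ libraries and 54.6 ± 13.9 CPM in TREM-1- libraries (SD, n = 6 each). The gene was not called (log2 fold change -0.08 ± 0.06, SE, edgeR adjusted p = 0.546). No source used here states whether the authors' counting used strand. In GENCODE vM21 transcripts searched on both strands, Slfn4 was the only gene that shared 100-base stretches with Slfn2 (0.13%). Reads of Slfn2 and Gm20234 may still be mixed under another annotation, which was not tested. The antisense gene of Slfn5, Slfn5os, held 2 counts in all 12 libraries together.

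Slfn1, which slows T cell growth when overexpressed in mice, stood at 65.2, 66.0, 56.5, 68.3, 36.9 and 104.9 CPM in TREM-1+ libraries. The TREM-1- partners held 97.4, 86.0, 73.7, 89.9, 46.7 and 129.7 CPM. As for Slfn5, lavage 6 was highest and lavage 5 lowest in both fractions. The fitted log2 fold change was -0.40 ± 0.05 (SE), with an edgeR adjusted p = 3.61e-07, and 5 of the 6 paired log2 differences lay between -0.40 and -0.31, with lavage 1 at -0.58.

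The intermediate members had the lowest levels of the family. Slfn4, which in mice is expressed by activated macrophages and by suppressor cells of the inflamed stomach, held between 37 and 164 counts in TREM-1+ and between 52 and 380 counts in TREM-1- libraries. It stood at 1.90, 2.35, 2.99, 7.49, 4.59 and 9.39 CPM in TREM-1+ libraries, against 2.57, 3.48, 4.95, 6.91, 4.07 and 23.0 CPM in TREM-1- libraries. It was lower in TREM-1+ in 4 lavages and higher in 2, lavages 4 and 5. The log2 fold change of -0.48 ± 0.18 (SE) was close in size to that of Slfn5 and did not pass the test (edgeR adjusted p = 0.106). It passed with limma-voom (-0.68, adjusted p = 0.0249) and without lavage 5 (-0.62, adjusted p = 0.0449), and without lavage 6, the highest pair, the value was -0.27 (adjusted p = 0.604).

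Slfn3, which takes part in the differentiation of gut epithelium in rats, had the lowest counts, 26 to 65 in TREM-1+ and 27 to 49 in TREM-1- libraries. It stood at 1.69, 1.68, 2.44, 3.18, 1.66 and 3.72 CPM in TREM-1+ libraries, against 1.34, 1.61, 1.69, 2.30, 1.95 and 2.97 CPM in TREM-1- libraries. TREM-1+ was higher in 5 of 6 lavages, the exception being lavage 5, and the log2 fold change of 0.25 ± 0.26 (SE) did not pass the test (edgeR adjusted p = 0.687). Of the different 31-base stretches in its transcripts, 30.9% occurred in another gene, among them 15.1% in Slfn4. With the counts of Slfn3 and Slfn4 added, the fitted log2 fold change was -0.27 ± 0.15 (SE), with an edgeR adjusted p = 0.342.

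Flipping the signs of the 6 paired log2 differences in every way (exact permutation test, two-sided) gave p = 0.0312 for Slfn1, Slfn2, Slfn5, Slfn8 and Slfn9, which is the smallest that 64 sign patterns allow. It gave p = 0.125 for Slfn4 and p = 0.0938 for Slfn3 (exact permutation test, 6 pairs).

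**Figure D2:**
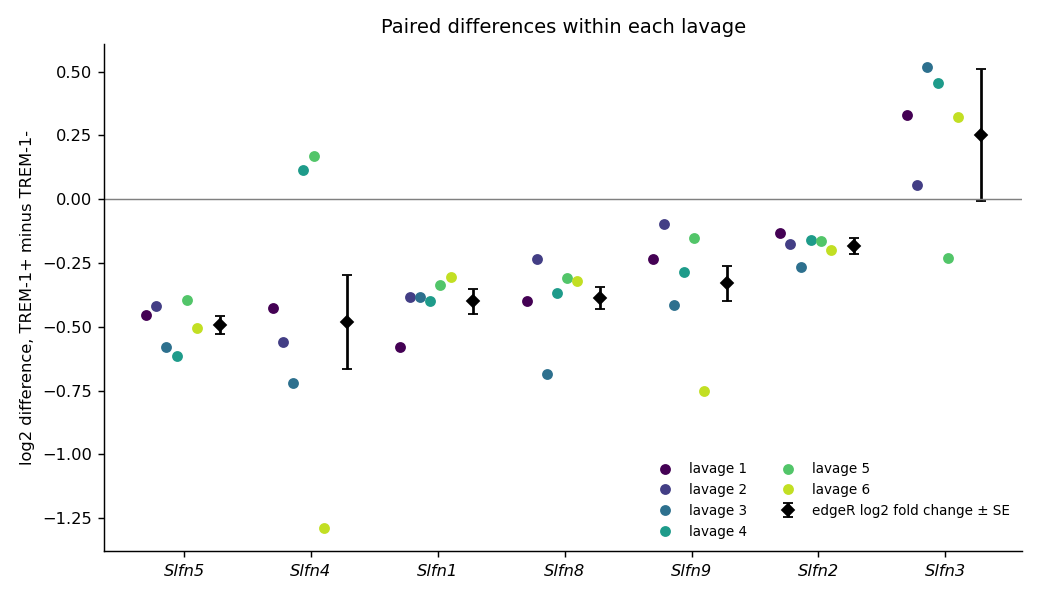
Difference in log2 CPM, TREM-1+ minus TREM-1-, in each of 6 lavages (coloured points), with the edgeR log2 fold change ± SE (black diamond); genes run from the most negative fold change to the highest. Points of 5 genes lie below 0 in all 6 lavages, while Slfn4 has 2 points above 0 and Slfn3 has 5.

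Differences between members were then set side by side within a lavage, which does not depend on how libraries are scaled. The log2 difference of Slfn5 was below that of Slfn2 in 6 of 6 lavages, by 0.23 to 0.46, and that of Slfn8 was below that of Slfn2 in 6 of 6, by 0.06 to 0.42. Slfn1 was likewise below Slfn2 in 6 of 6 lavages (mean gap -0.22 ± 0.12 on the log2 scale, SD, n = 6). Between Slfn1 and Slfn8 the mean gap was -0.01 ± 0.17 (SD, n = 6), with Slfn1 below Slfn8 in 4 of 6 lavages, which is within the spread. Slfn5 took 23.4 ± 2.74% of all Schlafen counts in TREM-1+ and 26.5 ± 3.08% in TREM-1- libraries (SD, n = 6 each), and its share was higher in TREM-1+ in 0 of 6 pairs. The share of Slfn2 was 48.7 ± 6.80% in TREM-1+ and 44.4 ± 7.23% in TREM-1- libraries (SD, n = 6 each), and was higher in TREM-1+ in 6 of 6 pairs. These gaps and shares are descriptions with no test.

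Levels per kilobase of the longest coding GENCODE vM21 transcript set Slfn2 apart at the top, at 333.5 ± 61.1 CPM per kb in TREM-1+ and 377.7 ± 63.7 CPM per kb in TREM-1- libraries (SD, n = 6 each). Slfn8 followed with 52.4 ± 19.5 CPM per kb in TREM-1+ and 68.1 ± 23.5 in TREM-1- libraries, and Slfn5 with 46.0 ± 15 CPM per kb in TREM-1+ and 65.0 ± 21.9 in TREM-1- libraries. Ranges of this pair overlapped, although Slfn8 was above Slfn5 in 11 of 12 libraries. Next came Slfn1, at 35.6 ± 11.9 CPM per kb in TREM-1+ and 46.8 ± 14.7 in TREM-1- libraries, and Slfn9, at 7.81 ± 1.76 CPM per kb in TREM-1+ and 10.1 ± 3.79 in TREM-1- libraries. Slfn4 (1.21 ± 0.77 CPM per kb in TREM-1+ and 1.90 ± 1.96 in TREM-1- libraries) and Slfn3 (1.22 ± 0.45 in TREM-1+ and 1.01 ± 0.30 in TREM-1- libraries) could not be ordered, since Slfn4 was above Slfn3 in 8 of 12 libraries. The order depends on the transcript length assumed: with the shortest coding transcript of each gene, Slfn5 (262.8 CPM per kb over all libraries) would stand above Slfn8 (193.0).

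Lavage set more of the variation than the fraction did. For Slfn5, 72.4% of the sum of squares of log2 CPM lay between lavages and 26.9% between fractions; for the other called members the share between fractions was 13.5 to 16.6%. These shares are descriptions, since lavage has more levels than fraction. The highest lavage held 2.46 times the Slfn5 level of the lowest in TREM-1+ libraries, and 2.66 times in TREM-1- libraries. For Slfn2 the corresponding ratio was 1.52 in TREM-1+ and 1.49 in TREM-1- libraries. Over the 12 libraries, which share lavages and depth, log2 levels of Slfn5 and Slfn8 had a Pearson r of 0.97, those of Slfn1 and Slfn5 of 0.96, and those of Slfn2 and Slfn5 of 0.59, given as descriptions.

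**Figure D3:**
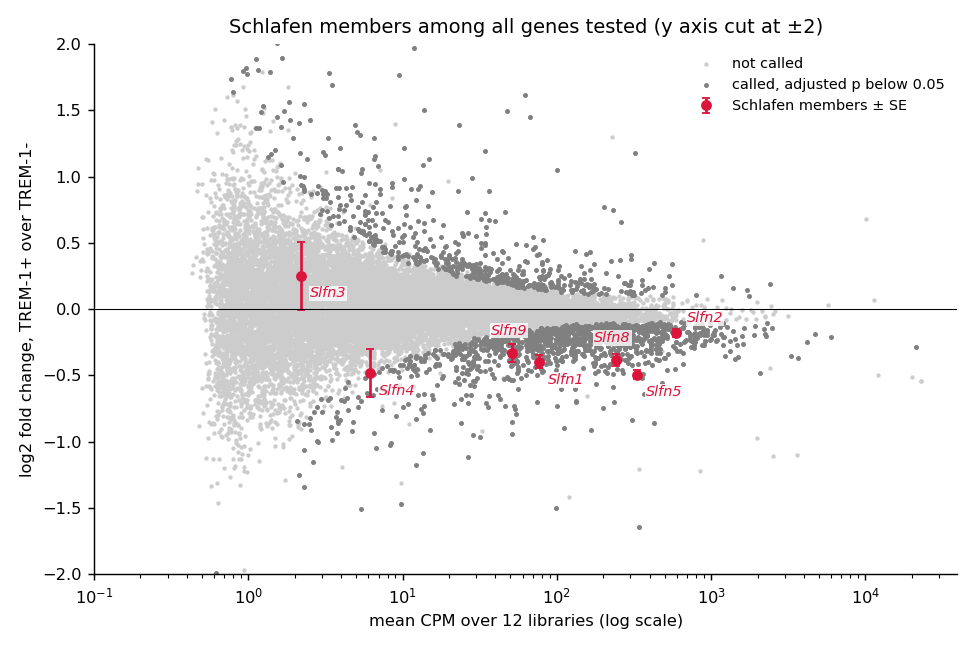
Log2 fold change, TREM-1+ over TREM-1-, against mean CPM over 12 libraries (log axis) for all 18302 genes tested; dark points are called, red points are the Schlafen members ± SE, and 8 genes beyond ±2 are outside the axis. Slfn5, Slfn8, Slfn1, Slfn9 and Slfn2 lie in the lower band of called genes, and Slfn3 and Slfn4 lie among uncalled genes of low level.

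The genes around the cluster were examined to see whether the change extended past the family. Of the 5 protein-coding genes nearest on each side in RefSeq, 6 of 10 were tested, and 0 were called lower or higher by edgeR. At an unadjusted p below 0.05, 1 was lower and 0 were higher; DESeq2 called 1 lower and 0 higher, and limma-voom called 0. Their log2 fold changes ran from -0.12 to 0.26 with a median of 0.02. Rffl, which encodes a ubiquitin ligase, had 114.1 CPM in TREM-1+ libraries and 124.0 CPM in TREM-1- libraries and was lower in 6 of 6 lavages (log2 fold change -0.12 ± 0.04, SE, edgeR adjusted p = 0.0505). Ap2b1, for a subunit of the clathrin adaptor, had 201.9 CPM in TREM-1+ libraries and 210.4 CPM in TREM-1- libraries (-0.06 ± 0.04, SE, edgeR adjusted p = 0.452). Rad51d, for a DNA repair protein, had a log2 fold change of 0.10 ± 0.07 (SE) and was not called. Slfn14, the remaining long member of the cluster, held 26 counts in all 12 libraries and was not tested.

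**Figure D4:**
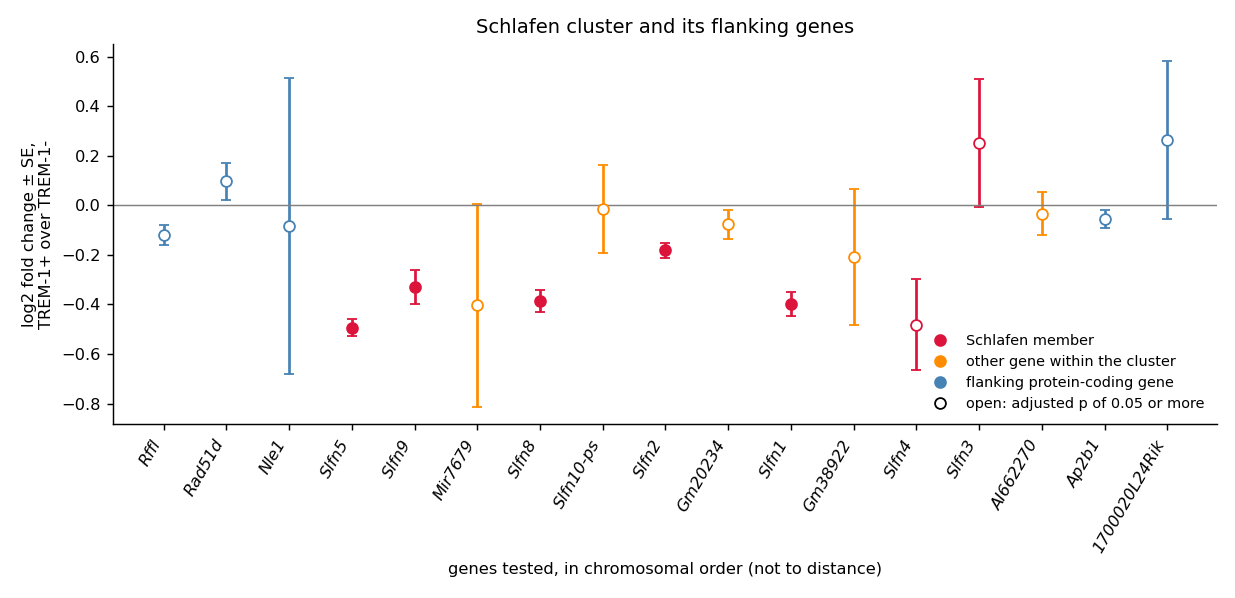
Log2 fold change ± SE, TREM-1+ over TREM-1-, of the genes tested within and around the Schlafen cluster, in chromosomal order and not to distance; filled points are called at an adjusted p below 0.05. All 5 filled points are Schlafen members, and the 5 flanking genes drawn, of 6 tested, lie between -0.12 and 0.26 and are not called.

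Genes of the interferon pathway give the setting. Of 20 interferon genes listed, 16 had no count in any library and 1 was tested, with 0 called by edgeR, DESeq2 or limma-voom and 0 at an unadjusted p below 0.05. Of 23 receptor, kinase, STAT and IRF genes tested, 12 were called lower and 0 higher (1 higher at an unadjusted p below 0.05, and 0 by DESeq2 or limma-voom), with a median log2 fold change of -0.12. Usp18, a feedback inhibitor of the type I interferon receptor, averaged 85.6 ± 40.0 CPM in TREM-1+ libraries and 128.5 ± 54.4 CPM in TREM-1- libraries (SD, n = 6 each; log2 fold change -0.60 ± 0.04, SE). Irf7, the amplifying transcription factor, changed by -0.34 ± 0.03 (SE), and the edgeR adjusted p-values were 1.19e-11 for Usp18 and 1.31e-08 for Irf7. Of 41 interferon-induced genes tested, 30 were called lower and 0 higher (2 higher at an unadjusted p below 0.05, 0 by DESeq2 and 1 by limma-voom), with a median of -0.37. The smallest p-values in this list were those of Ifi47, for an immunity-related GTPase (102.3 ± 45.2 CPM in TREM-1+ libraries against 165.2 ± 67.3 CPM in TREM-1- libraries, SD, n = 6 each), Cmpk2, for a mitochondrial nucleotide kinase (log2 fold change -0.70 ± 0.04, SE), and Rsad2 (-0.86 ± 0.04, SE). These genes were already known to be lower in these data, so they are no independent support.

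Other genes that act on RNA and translation, or on growth arrest, moved in part. Over all genes tested, 6.72% were called lower and 3.10% higher. With only genes of at least 5 CPM tested, 1898 of 10978 were called in either direction. Of 16 antiviral RNA and translation genes tested, 6 were called lower and 1 higher, with a median log2 fold change of -0.05. Samhd1, which depletes deoxynucleotides, averaged 1296 ± 208 CPM in TREM-1+ libraries and 1670 ± 272 CPM in TREM-1- libraries (SD, n = 6 each; log2 fold change -0.36 ± 0.03, SE, edgeR adjusted p = 2.24e-10). The exonuclease gene Isg20 (-0.49 ± 0.05, SE) also fell, and Zc3h12a, for the RNase regnase-1, rose (0.24 ± 0.06, SE). Of 18 quiescence and growth arrest genes tested, 4 were called lower and 2 higher. In this list Foxo3 (-0.24 ± 0.04, SE), Btg1 (-0.18 ± 0.03, SE) and Klf2 (-0.39 ± 0.07, SE) fell, and Txnip (0.10 ± 0.03, SE) and Tsc1 (0.23 ± 0.07, SE) rose. Of 14 proliferation genes tested 2 were called lower, Ccnd3 (-0.32 ± 0.04, SE) and Mki67 (-0.17 ± 0.06, SE). The list had 1 called higher, Mcm2 (0.89 ± 0.24, SE), at 4.08 CPM in TREM-1+ libraries and 2.18 CPM in TREM-1- libraries. Limma-voom called 1 proliferation gene lower and 1 higher.

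Some genes tracked the most abundant members across libraries. Among 10961 other genes of at least 5 CPM, the 3 whose log2 CPM had the highest Pearson correlation with Slfn5 over the 12 libraries were Rsad2 (r = 0.99), for the antiviral enzyme viperin, Sp100 (0.99), for a nuclear body protein, and Rigi (0.99), for an RNA sensor. For Slfn8 they were Ifih1 (0.99), for the RNA sensor MDA5, Parp12 (0.99) and Trim30a (0.99). For Slfn2 they were Gcnt1 (0.98), for a glycosyltransferase, Plek (0.98), for pleckstrin, and Cyp51 (0.97), for a sterol-synthesis enzyme. Rsad2 averaged 305.9 ± 172.6 CPM in TREM-1+ libraries and 544.2 ± 267 CPM in TREM-1- libraries (SD, n = 6 each), while Gcnt1 averaged 844.5 CPM in TREM-1+ libraries and 946.4 CPM in TREM-1- libraries. These correlations are descriptions over libraries that share lavages.

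Markers of other cells also moved with the fraction, more of them upward than downward. Of 10 T cell and innate lymphoid cell markers tested, 8 were called higher in TREM-1+ and 0 lower (0 lower at an unadjusted p below 0.05 and by DESeq2 or limma-voom), led by the T cell receptor subunit gene Cd3e at 7.45 ± 6.09 CPM in TREM-1+ libraries against 3.18 ± 3.01 CPM in TREM-1- libraries (SD, n = 6 each). The summed list ran from 10.3 to 130.7 CPM in TREM-1+ libraries and from 8.84 to 67.8 CPM in TREM-1- libraries, and was higher in TREM-1+ in 6 of 6 pairs. Of 8 neutrophil markers tested (12 listed, Elane at 0), 7 were called higher, among them S100a9 at 97.5 CPM in TREM-1+ libraries against 37.3 CPM in TREM-1- libraries. Retnlg was called lower (1244 CPM in TREM-1+ libraries against 1603 CPM in TREM-1- libraries) and made up most of the neutrophil sum, which was 1332 to 2225 CPM in TREM-1+ libraries and 1545 to 2297 CPM in TREM-1- libraries.

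Of 6 monocyte and interstitial macrophage markers tested (10 listed), 3 were called higher and Ly6c2 lower, with sums of 645.5 to 1234 CPM in TREM-1+ libraries and 734.2 to 1329 CPM in TREM-1- libraries. Of 5 alveolar macrophage markers (9 listed), 3 were called higher by edgeR, 5 by DESeq2, 4 by limma-voom and 5 at an unadjusted p below 0.05, and 0 were lower by any of these, with sums of 407.4 to 939.3 CPM in TREM-1+ libraries and 236.7 to 698.5 CPM in TREM-1- libraries. Of 6 dendritic cell markers (8 listed), Itgae was called higher, and the sums were 95.9 to 119.9 CPM in TREM-1+ libraries and 65.6 to 79.9 CPM in TREM-1- libraries. Of 3 mast cell and basophil markers (7 listed, Mcpt4 and Tpsb2 at 0), Kit was called higher, with sums of 28.8 to 64.3 CPM in TREM-1+ libraries and 30.0 to 57.2 CPM in TREM-1- libraries. Of the natural killer cell markers (3 of 7 tested), B cell markers (3 of 8), epithelial markers (2 of 8) and erythroid markers (1 of 5, Hba-a2 at 0), 0 were called by edgeR or DESeq2. Limma-voom called 1 natural killer cell marker higher, and 3 were higher at an unadjusted p below 0.05, against 0 in the B cell, epithelial and erythroid lists. Natural killer cell markers summed to 1.13 to 26.6 CPM in TREM-1+ libraries and 0.208 to 17.5 CPM in TREM-1- libraries, and B cell markers to 10.3 to 20.8 CPM in TREM-1+ libraries and 10.7 to 18.8 CPM in TREM-1- libraries. Epithelial markers summed to 14.8 to 42.5 CPM in TREM-1+ libraries and 17.3 to 76.5 CPM in TREM-1- libraries, and erythroid markers to 1.34 to 2.46 CPM in TREM-1+ libraries and 1.04 to 3.75 CPM in TREM-1- libraries. The part of such cells in the Schlafen differences was not tested.

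**Figure D5:**
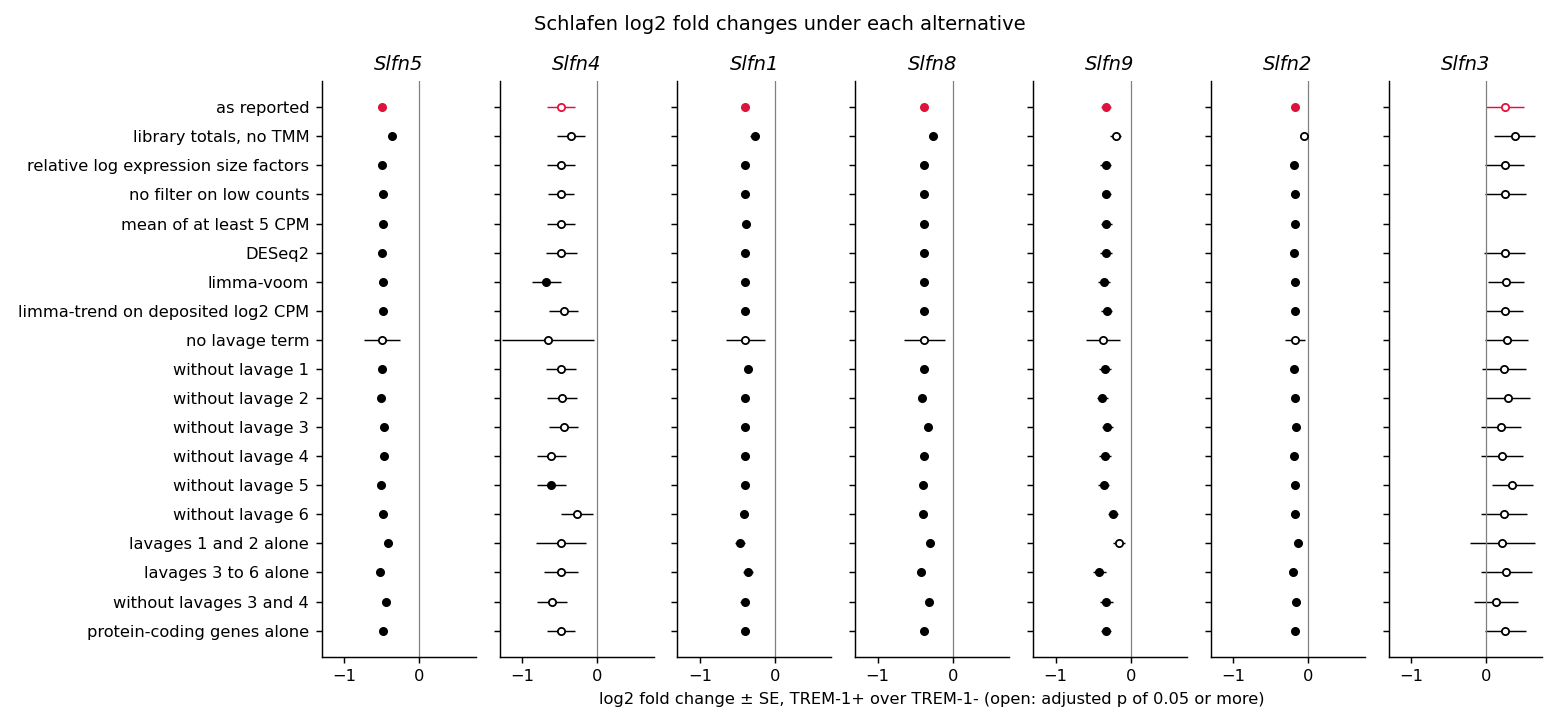
Log2 fold change ± SE, TREM-1+ over TREM-1-, of each Schlafen gene in the reported fit (red) and in each alternative (black); open points have an adjusted p of 0.05 or more. Slfn1, Slfn2, Slfn5, Slfn8 and Slfn9 lie below 0 in all 18 alternatives, with open points in the fit without the lavage term for all 5 of them, with library totals for Slfn2 and Slfn9, and in lavages 1 and 2 alone for Slfn9.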

How the data were processed

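Total RNA of sorted eosinophils went through ribosomal RNA removal and a stranded kit, then paired-end reading at 100 bases, per the labels' protocols. The deposited table gives each gene an estimated count in each library, in whole numbers. Named in the submitters' processing notes, without roles, are kallisto 0.45.0, R 4.3.0, edgeR 3.42.4 and GRCm39. A second deposited table holds log2 CPM for 17934 genes, used for 1 alternative. The transcript annotation was not stated.

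The rounded counts were fitted in edgeR 4.0.16 (R 4.3.3) with robust dispersions and TMM scaling, after filterByExpr at its default minimum count (10) and total (15). SE came from the F statistic, and paired differences used log2 CPM. The alternatives used DESeq2 1.42.0 and limma 3.58.1. Only the reported edgeR fit and the DESeq2 and limma-voom fits were tested on simulated data, with the same dispersion for all genes. The design text pairs both fractions of a lavage; deviations of partners from their group means correlated at 0.49, 0.50, 0.13, 0.37, 0.25 and 0.24 in lavages 1 to 6, and the best match in another lavage at 0.491, 0.438, 0.148, 0.125, 0.0972 and 0.0689, so that lavage 3 did not match its own partner best and lavage 1 barely did. Promoter windows and gene order are from RefSeq (GRCm38.p6), used for names and order only beside the printed windows. Named genes were the 7 members, their neighbours, Trem1, the 3 genes most like each of the 3 most abundant members, and list genes among the 3 smallest p-values in a direction (for marker lists, some of these). A few genes of the lists are not reported here. Members and lists were chosen with earlier results of these data known.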

Additional observations from a re-analysis of the deposited data

Results flagged for a closer look

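Each of the 7 genes was checked for a library or pair far from the other 5 of its kind, in 21 groups of 6 values, of which about 1 in 20 would stand out by chance. There were 3 that did. The level of Slfn4 in the TREM-1- library of lavage 6 was 23.0 CPM, where the other TREM-1- libraries held 2.57 to 6.91 CPM. The paired log2 difference of Slfn1 was -0.58 in lavage 1, where the other lavages ran from -0.40 to -0.31. The paired log2 difference of Slfn8 was -0.68 in lavage 3, where the other lavages ran from -0.40 to -0.24. The calls of Slfn1 without lavage 1 and of Slfn8 without lavage 3 were kept.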

How the results depend on the processing

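Among 18 alternatives, Slfn1, Slfn5 and Slfn8 were called lower in 17, Slfn2 in 16 and Slfn9 in 15, with negative log2 fold changes in all 18. Without the lavage block, the fit without pairing called 83 genes in either direction, 27 of them higher, and 0 members. Its log2 fold changes were -0.40 for Slfn1, -0.18 for Slfn2, -0.50 for Slfn5, -0.38 for Slfn8 and -0.37 for Slfn9. The edgeR adjusted p-values of these 5 were 0.725 to 0.897. With library totals 3 members were called lower, Slfn2 being at -0.054 and Slfn9 at -0.20, and higher genes made up most of those called. Lavages 1 and 2 alone gave -0.15 for Slfn9. Lavages 3 to 6 alone gave 1168 called genes and lavages 1 and 2 alone 1567, in place of 1797. Slfn4 was called lower with limma-voom (-0.68), and with 1 lavage left out it ran from -0.62 to -0.27. Slfn3 stayed uncalled throughout its 17 alternatives (0.13 to 0.38) and had no value under the 5 CPM filter. The cause of these changed calls was not tested. Slfn3 and Slfn4 held 430 and 1202 counts in all libraries together, the fewest of the 7 members.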
